A study of Bos taurus with 8 samples.

Results

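The 10 genes described here encode thioredoxins (TXN, TXN2), peroxiredoxins (PRDX1, PRDX2, PRDX3, PRDX5), superoxide dismutases (SOD1, SOD2) and glutathione peroxidases (GPX1, GPX4). They were taken by symbol from the 16606 genes of the deposited expression table, and all 10 were present. For one comparison they were set as 3 mitochondrial members (TXN2, PRDX3, SOD2) against 7 cytosolic members. They were selected on presence in the table, and the list was drawn up with measured expression differences of these data known, so its counts are a description of these genes and not independent support for any pattern. RNA was sequenced from bovine embryos produced in vitro, at the 4-cell and the 8-cell stage by their titles. The source and cell type labels call the 4-cell samples oocytes, so the stage rests on the titles. At each stage there were control embryos and embryos carrying the RPL12 edit that the labels call A148G, with 2 libraries per group and a pool of 5 embryos per library. Per the labels' protocols, PEmax, a prime editor made of a Cas9 nickase and a reverse transcriptase, was injected with its guide RNA into the cytoplasm of the zygotes that were to carry the edit. The titles call the same embryos base edited. All groups came from slaughterhouse oocytes fertilised with cryopreserved Holstein semen. Whether controls were injected, what share of alleles carried the edit and whether cumulus cells were stripped off are not given in the sources used here. The labels number the libraries of a group but do not say that the pools were separate cultures, so p-values measure the spread between these libraries.

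Superoxide dismutases turn superoxide, a by-product of respiration, into hydrogen peroxide. Glutathione peroxidases and peroxiredoxins then reduce the peroxide, the former with electrons from glutathione and the latter mostly with electrons from thioredoxin, which thioredoxin reductase recharges with NADPH. GPX1 and GPX4 are selenoproteins, with selenocysteine in the active site. The early cow embryo lives largely on transcripts and proteins stored in the oocyte until its own genome is activated, and oxidative stress in culture is a known concern for it. Some products of cytosolic members also work elsewhere: PRDX5 and GPX4 occur in mitochondria as well.

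Between 33527531 and 35122409 reads were assigned to genes in each library. Levels are in CPM, reads per 1000000, and the member with the fewest reads in any library was TXN2 with 572. Amplified reads are not independent molecules, so read numbers do not give the sampling error. RPL12, the edited gene, stood at 159 and 174 CPM in the 4-cell control libraries and at 27.5 and 33.6 CPM in the 4-cell edited ones, and at 96.3 and 97.6 CPM against 14.1 and 11.9 CPM at the 8-cell stage. Oocyte and early embryo markers, 15 genes such as GDF9 and ZP3, were detected in all 8 libraries. Their summed level was 19658 and 26026 CPM in the 4-cell controls, 49749.7 and 58178 CPM in their edited counterparts, 50278 and 37579.6 CPM in the 8-cell controls and 53016 and 55807 CPM in the edited libraries of that stage. Of these 15 markers 7 rose and 0 fell by limma in edited 4-cell embryos, where 18.9% of all genes tested rose and 25.8% fell. The other 8 were not called, and 5 of the 15 had log2 fold changes below 0. In 8-cell embryos 3 rose, 0 fell and 12 were not called, against 1.08% rising and 14.5% falling among all genes. Markers of cumulus and granulosa cells, the ovarian somatic cells around the oocyte, summed to 999 and 1011 CPM in the 4-cell controls against 323.5 and 360.0 CPM in their edited counterparts, and to 391 and 715 CPM against 392 and 399 CPM at the later stage. The first 8-cell control, with a marker sum of 391 CPM, had 364 CPM of GPX1 against 101 and 62.1 CPM in the edited libraries of that stage. By the mean log2 level of these markers that control, at 3.10, lay above the edited libraries, at 2.43 to 2.92. With the mean log2 level of these markers as a covariate, limma called 0 members in either editing comparison. Over all genes the covariate left 29 and 185 calls at the 4-cell and 8-cell stages, from 5419 and 1895.

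GPX1 and TXN2 had the largest differences between edited and control embryos among the members at both stages, followed by GPX4 at the 4-cell stage and TXN at the 8-cell stage. GPX1, the general peroxidase for hydrogen peroxide, was at 2076 and 1369 CPM in the 4-cell controls, 93.3 and 129 CPM in their edited counterparts, 364 and 898 CPM in the 8-cell controls and 101 and 62.1 CPM in the edited libraries of that stage. All 4 edited libraries lay below all 4 controls, and the 8-cell controls differed from each other 2.47-fold. GPX1 fell at the 4-cell stage by 3.93 on the log2 scale (SE 0.354, limma adjusted p-value 1.20e-06), from a mean of 1722 to 111 CPM, a control level 15.5 times the edited one. It fell at the 8-cell stage by 2.83 (SE 0.354, limma adjusted p-value 3.86e-05). Log2 fold changes are on log2(CPM + 1) throughout and come from a fit over the 12129 genes that averaged 1 CPM or more.

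GPX4, which reduces lipid peroxides within membranes, was at 631 and 488 CPM in the 4-cell controls, 103 and 107 CPM in their edited counterparts, 249.8 and 369.9 CPM in the 8-cell controls and 116 and 107 CPM in the edited libraries of that stage. The 4 edited libraries lay between 103 and 116 CPM, below every control. GPX4 fell by 2.39 at the 4-cell stage (SE 0.234, limma adjusted p-value 1.78e-06) and by 1.44 at the 8-cell stage (SE 0.234, limma adjusted p-value 0.000366). Both selenoprotein members were thus lower in edited embryos at each stage.

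**Figure D1:**
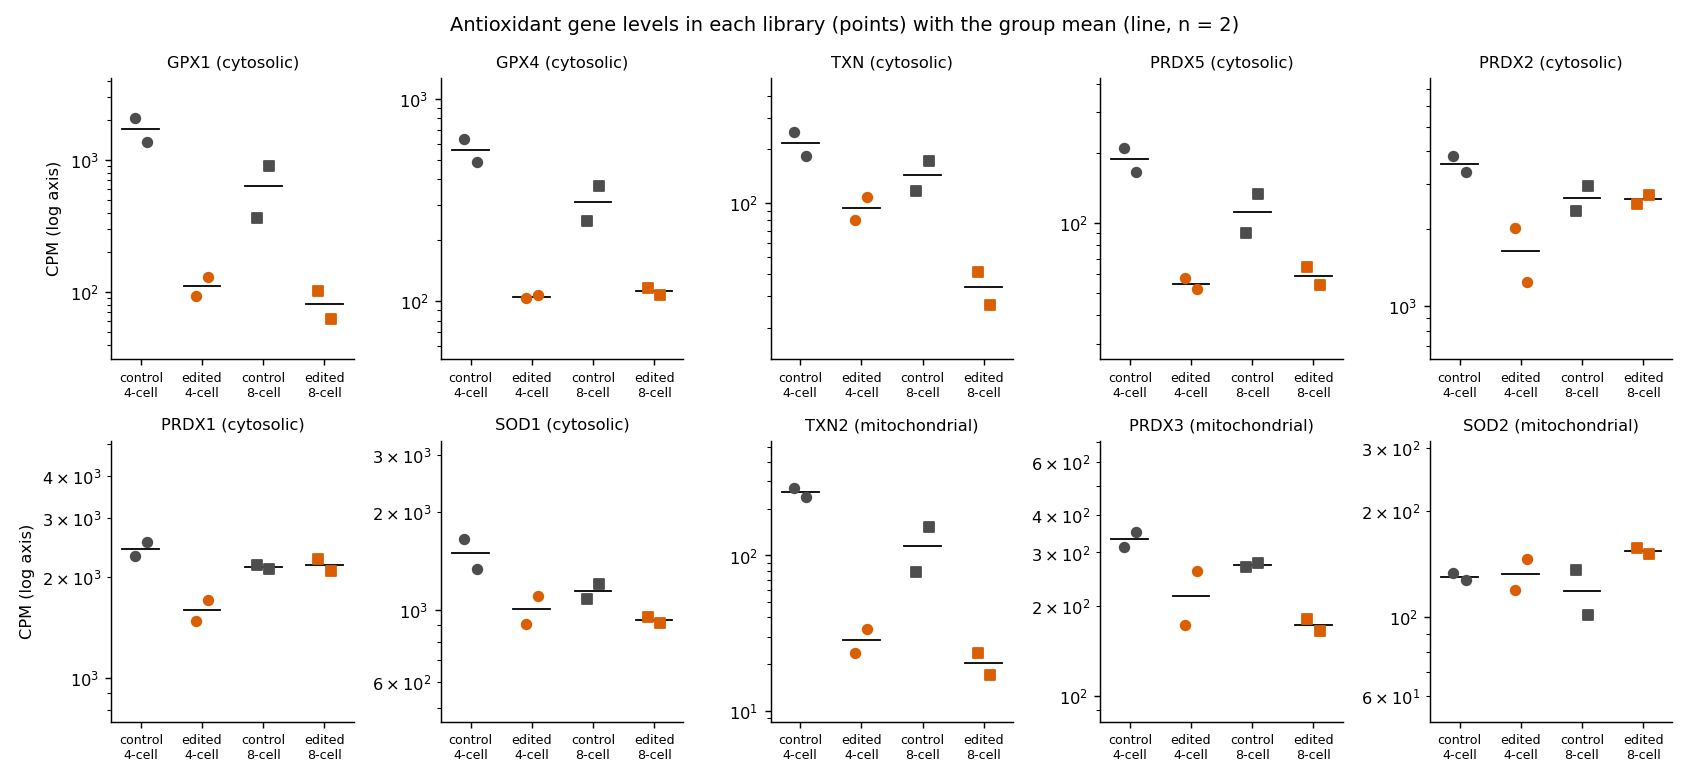
CPM of the 10 members (log axis, scaled for each gene) in each library, with points for libraries, lines for the mean of 2 and orange for edited embryos. In GPX1, GPX4, TXN2, TXN and PRDX5 the 4 edited libraries lie below the 4 controls, while the SOD2 libraries of all groups lie between 102 and 157 CPM.

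The thioredoxins were lower in edited embryos at both stages. TXN2, the mitochondrial form that supplies PRDX3 with electrons, was at 271 and 239 CPM in the 4-cell controls, 23.8 and 33.5 CPM in their edited counterparts, 77.7 and 152 CPM in the 8-cell controls and 23.6 and 17.1 CPM in the edited libraries of that stage. The 4 edited libraries lay below the lowest control. TXN2 fell by 3.13 at the 4-cell stage (SE 0.308, limma adjusted p-value 1.81e-06) and its 8-cell log2 fold change was -2.37 (SE 0.308, limma adjusted p-value 5.30e-05). TXN, the cytosolic and nuclear form, was at 249.6 and 183 CPM in the 4-cell controls, 80.7 and 108 CPM in their edited counterparts, 117 and 171 CPM in the 8-cell controls and 41.0 and 26.8 CPM in the edited libraries of that stage. Its edited libraries were again below all controls, with those of the 8-cell stage the lowest. TXN fell by 1.19 at the 4-cell stage (SE 0.279, limma adjusted p-value 0.00270) and by 2.06 at the 8-cell stage (SE 0.279, limma adjusted p-value 7.67e-05).

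The 4 peroxiredoxins were each called lower in edited embryos at the 4-cell stage, and PRDX5 alone of them at the 8-cell stage. PRDX5, a peroxiredoxin that is sent to mitochondria and peroxisomes as well as the cytosol, was at 210.5 and 166 CPM in the 4-cell controls, 57.8 and 51.6 CPM in their edited counterparts, 90.5 and 134 CPM in the 8-cell controls and 64.2 and 53.8 CPM in the edited libraries of that stage. The edited libraries did not overlap the controls at either stage. PRDX5 fell by 1.76 at the 4-cell stage (SE 0.251, limma adjusted p-value 5.11e-05) and by 0.89 at the 8-cell stage (SE 0.251, limma adjusted p-value 0.0215). The 8-cell call was lost when the second control library (log2 fold change -0.61, adjusted p-value 0.297) or either edited library of that stage was left out (adjusted p-values 0.0638 and 0.191), and with no filter on low values (0.0553).

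PRDX2, an abundant cytosolic peroxiredoxin, was at 3852 and 3316 CPM in the 4-cell controls, 2019 and 1242 CPM in their edited counterparts, 2335 and 2926 CPM in the 8-cell controls and 2494 and 2715 CPM in the edited libraries of that stage. The 4-cell edited libraries were the lowest of the 8, and the 8-cell edited libraries lay between their 2 controls. PRDX2 fell by 1.17 at the 4-cell stage (SE 0.247, limma adjusted p-value 0.00122). At the 8-cell stage its log2 fold change was -0.01 (95% interval -0.53 to 0.52, limma adjusted p-value 0.990), a value whose sign changed with the scaling.

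PRDX1, the other main cytosolic peroxiredoxin, ranged from 1478 to 1710 CPM in the 4-cell edited libraries and from 2082 to 2548 CPM in the other 6. It fell at the 4-cell stage by 0.61 (SE 0.205, limma adjusted p-value 0.0237), and its 8-cell log2 fold change was 0.01 (95% interval -0.42 to 0.45, adjusted p-value 0.974). PRDX3, the peroxiredoxin of the mitochondrial matrix, ranged from 269 to 351 CPM in the 4 control libraries and from 165 to 260 CPM in the 4 edited ones, without overlap. It fell by 0.65 at the 4-cell stage (SE 0.228, limma adjusted p-value 0.0295). The 8-cell log2 fold change was -0.66 (SE 0.228, limma adjusted p-value 0.0611), of the same size but above the threshold. PRDX3 passed there with only the 4 libraries of that stage in the limma fit (adjusted p-value 0.0182) and in no other setting. Its adjusted p-values were 0.180 by edgeR, 0.140 by DESeq2 and 0.133 by limma with TMM scaling.

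Of the superoxide dismutases SOD1 was called at the 4-cell stage and SOD2 at neither. SOD2, the manganese enzyme of the mitochondrial matrix, was at 133 and 127 CPM in the 4-cell controls, 119 and 146 CPM in their edited counterparts, 136 and 102 CPM in the 8-cell controls and 157 and 151 CPM in the edited libraries of that stage. The 4-cell groups overlapped, and the 8-cell edited libraries were the 2 highest of all. Neither difference passed the test, with log2 fold changes of 0.02 at the 4-cell stage (95% interval -0.46 to 0.50, limma adjusted p-value 0.957) and, for the 8-cell embryos, 0.39 (95% interval -0.10 to 0.87, limma adjusted p-value 0.301). SOD1, the copper and zinc enzyme of the cytosol, ranged from 1083 to 1652 CPM in control libraries and from 908 to 1104 CPM in edited ones. SOD1 fell by 0.57 at the 4-cell stage (SE 0.210, limma adjusted p-value 0.0372), and its 8-cell log2 fold change was -0.29 (SE 0.210, adjusted p-value 0.416).

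**Figure D2:**
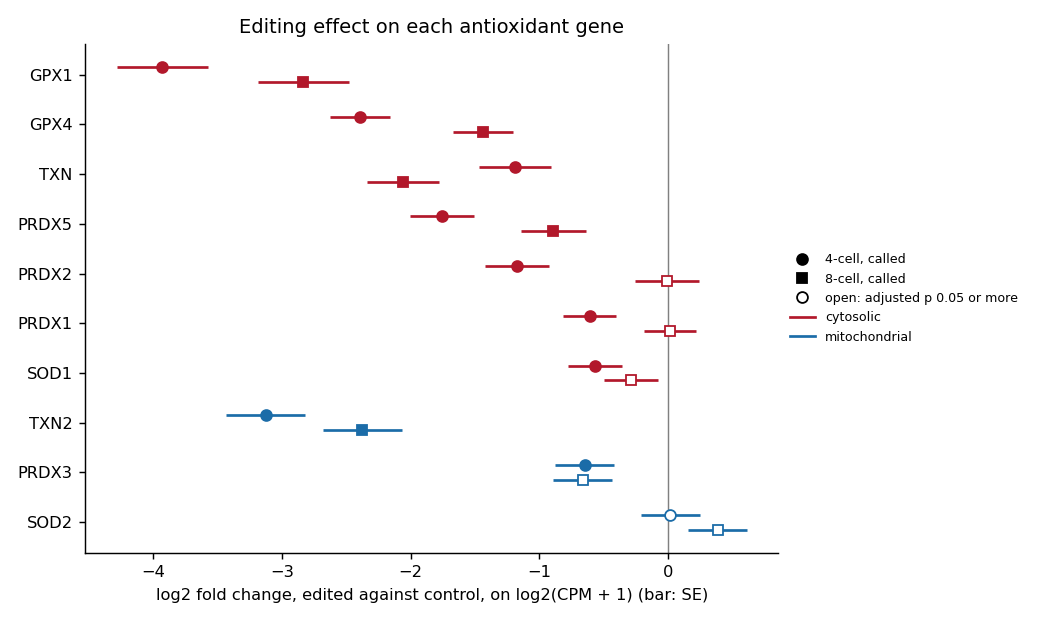
Log2 fold change of each member between edited and control embryos (x axis; bars are the SE), with circles for the 4-cell and squares for the 8-cell stage, and filled symbols for an adjusted p-value under 0.05. Among mitochondrial members (blue) the 4-cell values run from -3.13 for TXN2 to 0.02 for SOD2, and among cytosolic members (red) from -3.93 for GPX1 to -0.57 for SOD1.

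At the 4-cell stage 9 of the 10 members were thus called lower and 0 higher, where 25.8% of all genes tested were called lower and 18.9% higher. The median log2 fold change of the members was -1.18, and that of all genes tested -0.02. At the 8-cell stage 5 members were called lower (GPX1, GPX4, TXN, TXN2, PRDX5) and 0 higher, against 14.5% and 1.08% of all genes, with a median of -0.78 for the members and 0.00 for all genes. The libraries did not overlap for the 9 members lower at the 4-cell stage, where 37.5% of all genes were lower in this way. At the 8-cell stage 7 members were lower without overlap, against 32.7% of all genes, and 1 (SOD2) was higher without overlap, against 27.7%. GPX1 stood near the end of the distribution, with 0.289% of all tested genes at or below its change at the 4-cell stage and 1.04% at the 8-cell stage. For TXN2 these shares were 1.8% and 2.77%, for GPX4 5.94% and 9.89%. PRDX1, PRDX3 and SOD1 lay further in, at 30.7% to 32.5% at the 4-cell stage.

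Markers of ovarian somatic cells were compared in the same libraries. In bulk libraries fewer cells of a type and less RNA per cell cannot be told apart. Of 20 listed cumulus and granulosa markers 15 were tested, and 9 were lower and 1 higher (HAS2) in edited embryos at the 4-cell stage, where 25.8% of all genes were lower and 18.9% higher. There were 3 calls, all lower, at the 8-cell stage (20.0%, against 14.5% of all genes). Without overlap 9 of the 15 were lower at that stage, against 32.7% of all genes, and 3 were higher, against 27.7%. The summed level of the 20 markers was 1011 and 999 CPM in the 4-cell controls and 323.5 and 360.0 CPM in their edited counterparts. It was 391 and 715 CPM in the 8-cell controls and 399 and 392 CPM in the edited libraries of that stage. The first 8-cell control thus lay at the edited level by this sum. By the mean log2 marker level, at 3.10, it lay above the 2.43 to 2.92 of the edited libraries. Of the 8-cell controls the second had the higher sum and the higher GPX1, GPX4, TXN2, TXN and PRDX5. Of the 4-cell controls the second had the lower levels of these 5 genes, with a slightly lower sum but a higher mean log2 marker level (4.31 against 4.05). HSD3B1, a steroidogenic enzyme of granulosa cells, averaged 283 CPM in the 4-cell controls and 11.8 CPM in their edited counterparts. Its 8-cell means were 108 CPM in controls and 5.70 CPM in edited libraries (n = 2 each throughout). It is 1 marker with a large decrease, given as an example. Over the 15 tested markers the median changes were -1.11 (log2) in 4-cell and -0.94 in 8-cell embryos. Of the 15, 11 and 10 had values below 0. Between 1 and 4 of the 20 markers were at 0 reads in each library, among them LHCGR, AMHR2, FOXL2, HSD17B1 and TNFAIP6. Of 7 fibroblast and stroma markers tested 5 (71.4%) were called lower at each stage, against 25.8% and 14.5% of all genes. Without overlap 37.5% of all genes were lower at the 4-cell stage and 32.7% later, and at both stages all 7 of these markers. Their summed level was 3100 and 6443 CPM in the 4-cell controls, 1339 and 1970 CPM in their edited counterparts, 3185 and 2623 CPM in the 8-cell controls and 132 and 790.5 CPM in the edited libraries of that stage, where COL3A1 was at 0 reads. Blood and immune markers summed to 12.6 to 24.3 CPM in all libraries.

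**Figure D3:**
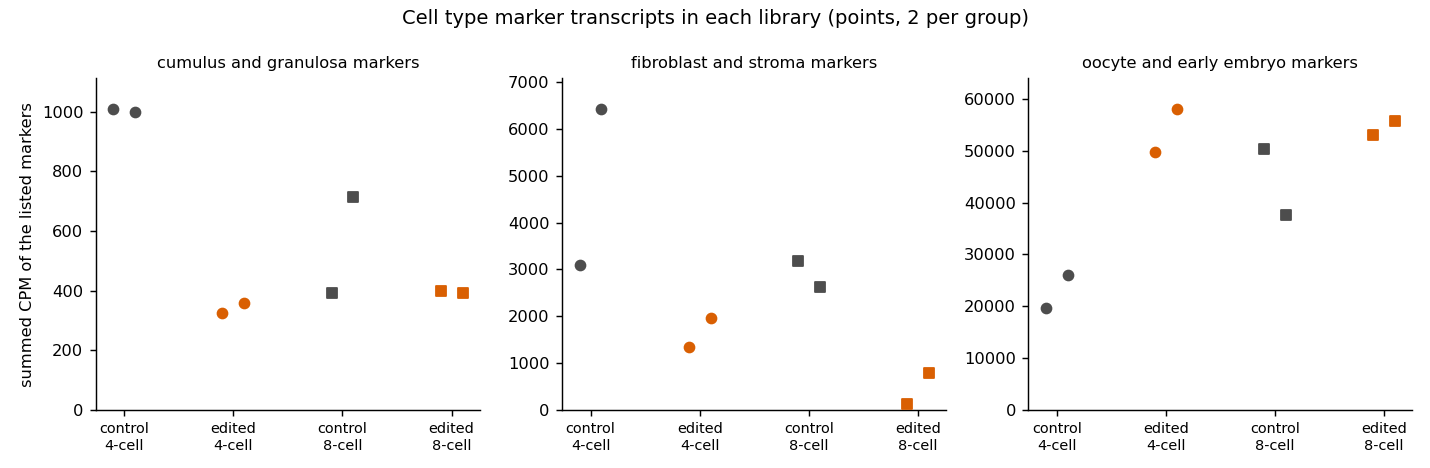
Summed CPM (linear axis from 0) of the cumulus and granulosa, fibroblast and stroma, and oocyte and early embryo markers in each library, with orange for edited embryos. The cumulus and granulosa sum is 1011 and 999 CPM in the 4-cell controls and at 715 CPM or less in the other 6.

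With the mean log2 level of the 15 cumulus and granulosa markers as a covariate, which itself lay between 3.10 and 4.31 in control and between 2.43 and 2.92 in edited libraries, 0 members were called by limma at either stage, and 4 at each stage had an unadjusted p-value under 0.05. Of all genes 29 were then called at the 4-cell stage and 185 later, where 1926 and 1320 passed that level without adjustment. The 4-cell log2 fold changes were -2.10 for GPX1 (adjusted p-value 0.106), -1.78 for GPX4 (0.117), -1.63 for TXN2 (0.194), -1.31 for PRDX2 (0.272) and -1.23 for PRDX5 (0.323), and those of the other members lay between -0.45 and -0.15. At the 8-cell stage they were -1.58 for GPX1 (0.0981), -1.43 for TXN (0.148), -1.36 for TXN2 (0.182) and -1.02 for GPX4 (0.321). Because marker level and editing largely go together, their shares in these differences cannot be told apart with 8 libraries, and the part of the stroma markers was not tested.

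Beside the marker covariate, which ended all 9 calls at the 4-cell stage and all 5 at the 8-cell stage, other settings ended the 3 smallest of the 4-cell calls. PRDX1, PRDX3 and SOD1 were above the threshold together with TMM scaling (adjusted p-values 0.115, 0.106 and 0.147), edgeR, DESeq2, no filter on low values, or only the 4 libraries of that stage in the fit, and 6 members were then called lower. Leaving out the first 4-cell edited library also ended these 3 calls, leaving out the second 4-cell control library ended those of PRDX1 and PRDX3, and leaving out the first 4-cell control library ended that of SOD1 (log2 fold change -0.41, adjusted p-value 0.196). The calls of GPX1, GPX4, TXN, TXN2, PRDX2 and PRDX5 at the 4-cell stage, and of the first 4 of these at the 8-cell stage, held with each library left out in turn.

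The division into mitochondrial and cytosolic enzymes did not follow the size of the differences. At the 4-cell stage 2 of 3 mitochondrial and 7 of 7 cytosolic members were called lower, with medians of -0.65 and -1.19. At the 8-cell stage 1 of 3 and 4 of 7 were called lower, with medians of -0.66 and -0.89. Each compartment held both a member with a large decrease at each stage (TXN2 and GPX1) and one near 0 at one of them: SOD2 at the 4-cell stage (0.02) and PRDX1 at the 8-cell stage (0.01). The mitochondrial members took 6.13% and 7.09% of the members' summed CPM in the 4-cell controls, and 6.23% and 8.98% in their edited counterparts, which overlap. In the 8-cell libraries they took 7.0% and 6.36% in controls and 5.64% and 5.29% in edited embryos, lower without overlap. A mean of log2(CPM + 1) weights genes equally. On it the mitochondrial members were higher relative to the cytosolic ones in edited embryos, by 0.41 at the 4-cell stage and by 0.19 later. At the 8-cell stage this is the opposite direction to the share, and at the 4-cell stage the same direction as the mean share.

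Within the mitochondrial trio the proportions shifted. The ratio of SOD2 to TXN2 CPM, which depends on transcript lengths and is read here only between libraries, was 0.492 and 0.534 in the 4-cell controls, and 5.02 and 4.34 in their edited counterparts. In 8-cell libraries it was 1.75 and 0.671 in controls and 6.64 and 8.83 in edited embryos. The ratio of PRDX3 to TXN2 was 1.16 and 1.47 in the 4-cell controls, 7.23 and 7.75 in their edited counterparts, 3.46 and 1.83 in the 8-cell controls and 7.61 and 9.61 in the edited libraries of that stage. Both ratios were higher in each edited library than in any control. They share TXN2 as the divisor, so they restate its lower level in edited libraries and are not separate results. In the cytosol, PRDX1, PRDX2 and SOD1 together made up 66.8% and 71.1% of the members' summed CPM in the 4-cell controls, 87.1% and 82.9% in their edited counterparts, 81.1% and 74.8% in the 8-cell controls and 89.3% and 90.7% in the edited libraries of that stage. GPX1 went from 17.7% and 13.5% of it in 4-cell controls to 1.85% and 2.65% in 4-cell edited embryos. The share of all reads that fell on the 10 members was 1.16% and 1.01% in the 4-cell controls, 0.509% and 0.491% in their edited counterparts, 0.686% and 0.834% in the 8-cell controls and 0.638% and 0.625% in the edited libraries of that stage.

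Whether the effect of editing differed between the stages was tested directly, as the 8-cell log2 fold change minus the 4-cell one. By limma 0 of the 10 members passed, where 3.96% of all genes did. An unadjusted limma p-value under 0.05 was reached by 6 members (PRDX2, GPX4, PRDX5, TXN, GPX1 and PRDX1) and by 2800 of the 12129 genes tested. On the recovered reads edgeR called 0 members, with 4 members and 2912 of 14629 genes at an unadjusted p-value under 0.05. DESeq2 called PRDX2, among 1035 of 16606 genes. PRDX2 had the largest difference, 1.17 (SE 0.350, adjusted p-value 0.0688), followed by GPX1 with 1.09 (SE 0.50, adjusted p-value 0.205) and GPX4 with 0.95 (SE 0.332, adjusted p-value 0.103). TXN had the opposite sign, -0.87 (SE 0.395, adjusted p-value 0.199). Without the second 4-cell control library PRDX2 and GPX4 passed, and without the second 8-cell control library GPX1 did. Each of these fits left a group with a lone library, and calls over all genes rose in them too.

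The stages were next compared within each condition. These comparisons share libraries with the editing comparisons, so their values stand side by side and are not independent. In controls GPX1, GPX4 and TXN2 were lower at the later stage. GPX1 fell by 1.56 (SE 0.354, limma adjusted p-value 0.0202), TXN2 by 1.22 (SE 0.308, adjusted p-value 0.0289) and GPX4 by 0.87 (SE 0.234, adjusted p-value 0.0345). These were 3 of 10 members, where 6.27% of all genes were called lower and 2.75% higher. The other 7 had log2 fold changes from -0.76 for PRDX5 to -0.14 for SOD2 and did not pass. The 3 calls were lost when the first control library of either stage was left out, with log2 fold changes for GPX1 of -1.26 and -0.91. By edgeR 0 members were called (adjusted p-values 0.0840 to 0.0965 for the 3). At an unadjusted p-value under 0.05 edgeR had 4 members and 3319 of 14629 genes.

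In edited embryos TXN was the member that passed between stages. TXN fell from 94.3 ± 19.2 to 33.9 ± 10.0 CPM (SD, n = 2), by 1.47 on the log2 scale (SE 0.279, limma adjusted p-value 0.00995). This was 1 of 10 members, where 3.73% of all genes were called lower and 1.45% higher. Without the second 4-cell edited library its adjusted p-value was 0.213, and without the second 8-cell edited library 0.105. PRDX2 and PRDX1 had positive values that did not pass, 0.72 (adjusted p-value 0.104) and 0.45 (adjusted p-value 0.221). The other 7 lay between -0.47 for TXN2 and 0.22 for SOD2. The order of the 4 group means, from high to low, was 4-cell control, 8-cell control, 4-cell edited and 8-cell edited for GPX1, TXN2, TXN, PRDX3 and SOD1, and the 2 edited groups passed against each other for TXN alone of these. For GPX4 and PRDX5 the 2 edited groups were the lowest and did not pass against each other either, and for PRDX1 the 8-cell controls passed neither against 8-cell edited nor against 4-cell control embryos.

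The partners of these enzymes were taken from 6 lists, of which 63 of 73 listed genes were tested. At the 4-cell stage 31 (49.2%) were called lower and 7 (11.1%) higher, against 25.8% and 18.9% of all genes, and their median was -1.02 (log2). Later 21 (33.3%) were lower and 1 (1.59%) higher, against 14.5% and 1.08%, with a median of -0.36. Of the peroxiredoxins outside the member list, PRDX4, the form of the endoplasmic reticulum, had 71.5 ± 11.8 CPM (SD, n = 2) in 4-cell edited embryos and 408 ± 92.2 CPM in their controls. PRDX6, which uses a single cysteine and glutathione, stood at 273 ± 56.0 against 1003 ± 35.9 CPM. Both fell, with log2 fold changes of -2.49 and -1.89 at the 4-cell stage and of -1.75 and -1.90 at the 8-cell stage (limma adjusted p-values 1.8e-06 to 9.92e-05). In the same list SESN3 and SESN1, sestrins, rose at the 4-cell stage by log2 fold changes of 2.16 and 1.43, so that 2 of its 6 genes were higher and 2 lower.

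Of 9 thioredoxin partners 3 (33.3%) were lower and 1 higher at the 4-cell stage and 2 (22.2%) lower at the 8-cell stage, near the 25.8% and 14.5% of all genes that were lower. TXNRD2, the mitochondrial thioredoxin reductase, had 0.712 ± 0.179 CPM (SD, n = 2) in 4-cell edited embryos and 6.03 ± 1.60 CPM in their controls, a log2 fold change of -2.02 (limma adjusted p-value 0.000946). TXNDC9, which binds a chaperonin, rose by 0.79 (adjusted p-value 0.00501). TXNIP, the thioredoxin-binding inhibitor, was lower at the 8-cell stage with a log2 fold change of -0.96 (adjusted p-value 0.0425). Among 17 genes of glutathione synthesis and use 9 were lower and 1 higher at the 4-cell stage and 8 lower at the 8-cell stage. GLRX5, a mitochondrial glutaredoxin of iron-sulphur cluster assembly, had a 4-cell log2 fold change of -3.45 (45.3 ± 7.03 against 510 ± 131 CPM, SD, n = 2). GPX7, a peroxidase of the endoplasmic reticulum, had values of -2.94 and -2.40 at the 2 stages, and GLRX2, a mitochondrial glutaredoxin, -2.52 at the 8-cell stage. MGST2, a microsomal glutathione transferase, was the gene that rose at the 4-cell stage, by 0.92.

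**Figure D4:**
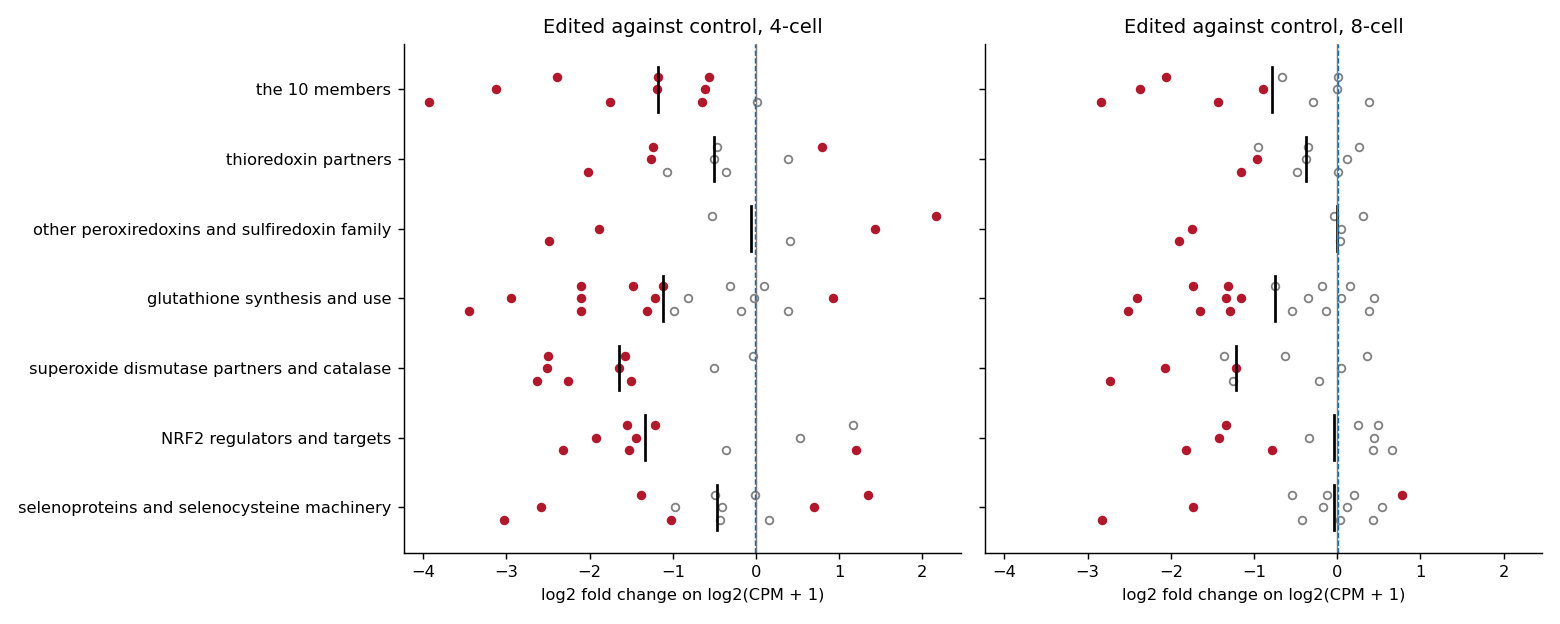
Log2 fold change of each tested gene (x axis) in the 10 members and the 6 partner lists at the 4-cell stage (left) and the 8-cell stage (right), with red points called, open points not called, black bars for medians and a dashed line for the median of all genes. At the 4-cell stage the medians run from -1.64 to -0.06 over the partner lists, and at the 8-cell stage from -1.22 to 0.00.

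Of 9 dismutase partners, catalase and repair enzymes 7 (77.8%) were lower at the 4-cell stage, against 25.8% of all genes. At the 8-cell stage 3 (33.3%) were lower, against 14.5%. PARK7, a redox-sensing protein, had log2 fold changes of -1.51 and -1.22 at the 4-cell stage and later, and MSRB3, a methionine sulfoxide reductase, of -2.63 and -2.73. CCS, the copper chaperone that loads SOD1, had 1.99 ± 0.490 CPM (SD, n = 2) in 8-cell edited embryos and 12.1 ± 5.96 CPM in their controls (log2 fold change -2.07, limma adjusted p-value 0.00243). Next came 10 regulators and targets of NRF2, the transcription factor of the antioxidant response. Of these 6 (60%) were lower and 1 (10%) higher at the 4-cell stage, against 25.8% and 18.9% of all genes. At the 8-cell stage 4 (40%) were lower, against 14.5%. The gene of NRF2 itself, NFE2L2, fell by 1.53 at the 4-cell stage (32.6 ± 4.27 against 95.5 ± 3.77 CPM, SD, n = 2), and FTH1, the ferritin heavy chain, had log2 fold changes of -2.32 and -1.42. NQO1, a quinone reductase and a classic NRF2 target, rose at the 4-cell stage by 1.20 (adjusted p-value 0.00173). Since GPX1 and GPX4 need selenocysteine, its machinery and other selenoproteins were listed too. Of 12 tested, 4 (33.3%) were lower and 2 (16.7%) higher at the 4-cell stage, near the 25.8% and 18.9% of all genes. Of them 2 (16.7%) were lower and 1 higher at the 8-cell stage, against 14.5% and 1.08%. SELENOS and SELENOW, selenoproteins, had log2 fold changes of -3.03 and -2.58 at the 4-cell stage and of -2.83 and -1.73 at the 8-cell stage. SEPSECS, the enzyme that makes selenocysteine on its tRNA, rose by 0.69 and 0.78 (adjusted p-values 0.0209 and 0.0263).

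The genes of the table whose levels followed a member most closely were found by Pearson's r over the 8 libraries, which fall into edited and control groups and share these differences, among the 7436 genes averaging 10 CPM or more. For GPX1 they were RPS9, MLLT6 and CISD3 (r of 0.9991 to 0.9997), where MLLT6 and CISD3 carry identical values in all 8 libraries and cannot be told apart, and for TXN2 they were NDUFB11, GPX1 itself and COX4I1 (0.998 each). TXN was followed most closely by RPL36A, UTP11 and RPS26 (0.992 to 0.998), GPX4 by DCTN3, MRI1 and RPS19BP1 (0.997 to 0.998), and PRDX5 by RHOC, SF3B5 and S100A16 (0.996 to 0.997). SOD2 had the weakest neighbours, RNF34, PTGS2 and ARMH4 (0.918 to 0.942). Among the members themselves GPX1, GPX4, TXN2 and PRDX5 correlated at 0.971 to 0.998 with each other. SOD2 correlated negatively with 8 of the other 9, from -0.60 with TXN to -0.25 with PRDX2, and at 0.12 with PRDX1.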

How the data were processed

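Polyadenylated RNA of pools of 5 bovine embryos was amplified (SMART-Seq) for Nextera XT libraries, per the labels' protocols. Trim Galore 0.6.7, HISAT2 2.2.1 and featureCounts 2.0.1 are named in the submitters' processing notes, and the genome build, annotation and filters are not given in the sources used here. The values deposited by the authors are CPM, although the table is named for raw counts: columns sum to 992528 to 1007024, and each library has 1 step of which 100% of its values above 0 are whole multiples to within 0.05 reads, from which whole reads were recovered. Of 12 columns 8 carry library names of the samples and 4 were not used. No sequences or coordinates were used.

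The members and gene lists were chosen with earlier results of these data known. The main test was limma 3.58.1 in R 4.3.3 on log2(CPM + 1), its prior variance following the mean level, for the 12129 genes averaging 1 CPM or more, with 1 mean per group over all 8 libraries, Benjamini-Hochberg adjustment over all of these genes and calls at an adjusted p-value under 0.05. All 10 members passed this filter. Alternatives were pseudocounts of 0.5 and 5 CPM, other filters (none, 5 CPM), edgeR 4.0.16 and DESeq2 1.42.0 on the recovered reads, TMM scaling, only the libraries compared, the replicate number as a block, a marker covariate, and each library left out. The limma and edgeR fits were tested on simulated counts for the comparisons between groups, with a fixed spread not taken from these libraries. The difference between stages and DESeq2 were not simulated. Replicates differed by more than the sampling noise of independent reads (chi-square per degree of freedom 46.1 to 144). All 10 members are named, with up to 3 called genes per direction, list and editing comparison by smallest p-value, and the 3 genes most like each member. Reads of genes with processed pseudogenes, which may include several members, are uncertain to the extent that counting split them. Amplified reads are not independent molecules.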

Additional observations from a re-analysis of the deposited data

Results flagged for a closer look

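The effect of editing differed between the stages for 5 of the 63 partner genes tested, by limma's test of the difference itself with adjustment over all genes, and for 0 of the 10 members, where 3.96% of all genes were called. For GLRX5 the 8-cell log2 fold change exceeded the 4-cell one by 2.70 (adjusted p-value 0.0206). Its means were 510 and 45.3 CPM in 4-cell control and edited embryos, and 131 and 67.5 CPM in 8-cell ones, where the 2 controls differed 2.92-fold. For HMOX2, a haem oxygenase, the difference was 2.17 (adjusted p-value 0.0382), with means of 36.2 and 8.80 CPM at the earlier stage and 12.7 and 14.3 CPM at the later. For SESN3 it was -2.20 (adjusted p-value 0.0324), with 13.4 and 60.1 CPM at first and 25.7 and 25.9 CPM later. For SLC7A11, the cystine transporter, it was -2.98 (adjusted p-value 0.0306), at levels of 0.839 to 5.55 CPM in the 4 group means. The other gene, FTL, the ferritin light chain, was picked out after its values were seen, with a difference of 1.88 (adjusted p-value 0.0195). With 2 libraries per group each of these values rests on few samples.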

How the results depend on the processing

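Of the member calls, 9 at the 4-cell stage and 5 later in the report, the count of members lower in edited embryos was 0 at both stages with the marker covariate, and 6 at the 4-cell stage with no filter, edgeR, DESeq2, TMM scaling or only the 4 libraries. Between stages in controls 0 members were called lower with no filter, edgeR, only the 4 libraries or the covariate, and 0 to 4 with 1 library left out. In edited embryos 0 were called lower with no filter, 0 to 1 with 1 library left out, and 1 higher (PRDX2) with only the 4 libraries. For the difference between stages 1 member was higher with DESeq2, and 0 to 2 with 1 library left out. Values near 0 changed sign. At the 4-cell stage SOD2 was -0.32 with the covariate and -0.13 to 0.16 with 1 library left out. At the 8-cell stage PRDX2 was 0.0376 with edgeR, 0.0379 with DESeq2 and 0.0384 with TMM scaling, and -0.17 to 0.16 with 1 library left out, and PRDX1 -0.0443 to 0.0728. With 1 library left out, PRDX3 was -0.31 to 0.28 for the difference and -0.59 to 0.0016 between edited stages, where PRDX5 was -0.0197 to 0.23 and SOD1 -0.24 to 0.0398, and SOD2 was -0.35 to 0.0649 between control stages. The mitochondrial share, edited minus control, was -0.40 to 2.75 percentage points at the 4-cell stage and -2.05 to -0.12 at the 8-cell stage with 1 member left out, and 0.19 (log2) at the 8-cell stage on the log scale. The cause of these shifts was not tested.

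Over all genes the marker covariate left 29 and 185 calls at the 4-cell and 8-cell stages, from 5419 and 1895. For the difference 480 genes were called, against 0 with no filter (2987 at an unadjusted p-value under 0.05), 18 with edgeR (6 higher and 12 lower, from 237 and 243), 44 with the covariate and 1035 with DESeq2. edgeR placed the median of all genes at -0.13 for this difference, from -0.02. Between stages 1094 genes were called in controls, against 0 with no filter (3718 unadjusted), 86 with edgeR, 161 with only the 4 libraries, 17 with the covariate and 1629 with DESeq2, and 628 in edited embryos, against 5, 324, 1149, 416 and 1286.

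Replicate numbers are shared between the groups, but the deviations of same-numbered libraries correlated at 0.108 and -0.0863 between control and edited libraries at the 4-cell and 8-cell stages, and at -0.302 and 0.0234 between stages, so the numbers are not taken to pair libraries. With the replicate block 8 members were called lower at the 4-cell stage (SOD1 was not, adjusted p-value 0.0646), 5 at the 8-cell stage, 3 between control stages and 1 between edited stages, and 5224 and 1842 genes in all in the editing comparisons. A crossed pairing of the control libraries, chosen after seeing the data, called 1 member higher for the difference and 4 lower between control stages, with 864 and 1690 genes in all. With 2 libraries per group and leaving 1 out, the lone library is assumed to vary like the other groups.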

Other observations

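The partner genes were also compared between stages, as values beside the editing comparisons with which they share libraries. In controls 10 of the 63 tested were lower at the 8-cell stage and 0 higher, against 6.27% and 2.75% of all genes (median log2 fold change -0.49), where GLRX5 had a value of -2.12 (limma adjusted p-value 0.00855) and HMOX2 one of -1.50 (adjusted p-value 0.0284). In edited embryos 4 were lower and 1 higher, against 3.73% and 1.45% of all genes (median -0.10), with SLC7A11 at -1.94 (adjusted p-value 0.0270).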
